A study of Mus musculus with 12 samples.

Results

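Expression of 10 neuropeptide precursor genes was examined in the medial prefrontal cortex (mPFC) of mice raised with or without a microbiota: Crh, Penk, Pdyn, Tac1, Tac2, Cck, Cort, Adcyap1, Nts and Cartpt. They were chosen by name as peptide genes of cortical neurons, and all 10 are among the 41388 genes of the count table. The mice were male Swiss Webster animals aged 10 weeks, in 3 groups: conventionally raised controls (CON), germ-free mice kept in gnotobiotic isolators (GF), and mice born germ-free that were colonized from postnatal day 21 (exGF). CON and exGF animals lived in the standard animal unit, all groups ate the same autoclaved diet, and housing therefore cannot be told apart from the absence of microbes in GF mice. PolyA RNA of 4 libraries a group was sequenced, each library being a pool of 2 or 3 animals. The exGF libraries are called GFR1 to GFR4 as in the table, which does not tie them to single samples.

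Neuropeptides are cut from larger precursor proteins, stored in dense-core vesicles and released by strong or repeated firing to act on G-protein-coupled receptors. In the cortex many of these precursors are made by GABAergic interneurons, and Cck and Adcyap1 also by excitatory neurons, whereas Penk, Pdyn and Tac1 are far more abundant in the projection neurons of the neighbouring striatum. In RNA from whole tissue, fewer cells of a type and less RNA per cell cannot be told apart.

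Library depth, as reads counted on genes, was 22757169 to 29134760 in CON, 13280926 to 23465074 in GF and 22702599 to 28615407 in exGF. Markers of cortical glutamatergic neurons (12 genes, among them Slc17a7 and Tbr1) were abundant in every library, with a summed level of 6077 to 7153 CPM (the count of a gene scaled to library size). Camk2a alone had a mean of 4133 CPM in CON, where the mean sum was 6436 CPM. The sum of 9 markers of thalamus, hypothalamus and septum was 38.4 to 63.2 CPM, the highest in library CON2 and the next in CON4 (53.1 CPM). Sums over different genes are not shares of tissue. Libraries CON2 and GFR4 stood apart from the other 10. The summed level of 12 striatal projection neuron markers was 500.2 CPM in CON2 and 525 CPM in GFR4, and between 280 and 329 CPM in the other 10 libraries. In 10 of the 12 markers both libraries lay above all others, the exceptions being Pde10a and Rarb. Of the defining markers, the D2 dopamine receptor Drd2 was at 5.37 CPM in CON2 and 6.50 CPM in GFR4 against 0.45 to 1.74 CPM elsewhere, and the adenosine receptor Adora2a was at 9.72 and 9.16 CPM against 1.36 to 3.93 CPM. None of the 12 glutamatergic markers had both libraries on top.

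The same 2 libraries were the highest for 6 of the 10 neuropeptide genes, namely Penk, Pdyn, Tac1, Tac2, Nts and Cartpt, a pattern held by 747 of 16032 tested genes (4.66%). Adcyap1 had the reverse order, at 35.0 CPM in CON2 and 36.4 CPM in GFR4, below the other 10 libraries. Crh, Cck and Cort had neither pattern. No GF library carried a striatal sum of this size (302 to 312 CPM), so CON2 enters any comparison with GF on the CON side only, and values that moved with these libraries are given with and without them below.

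**Figure D1:**
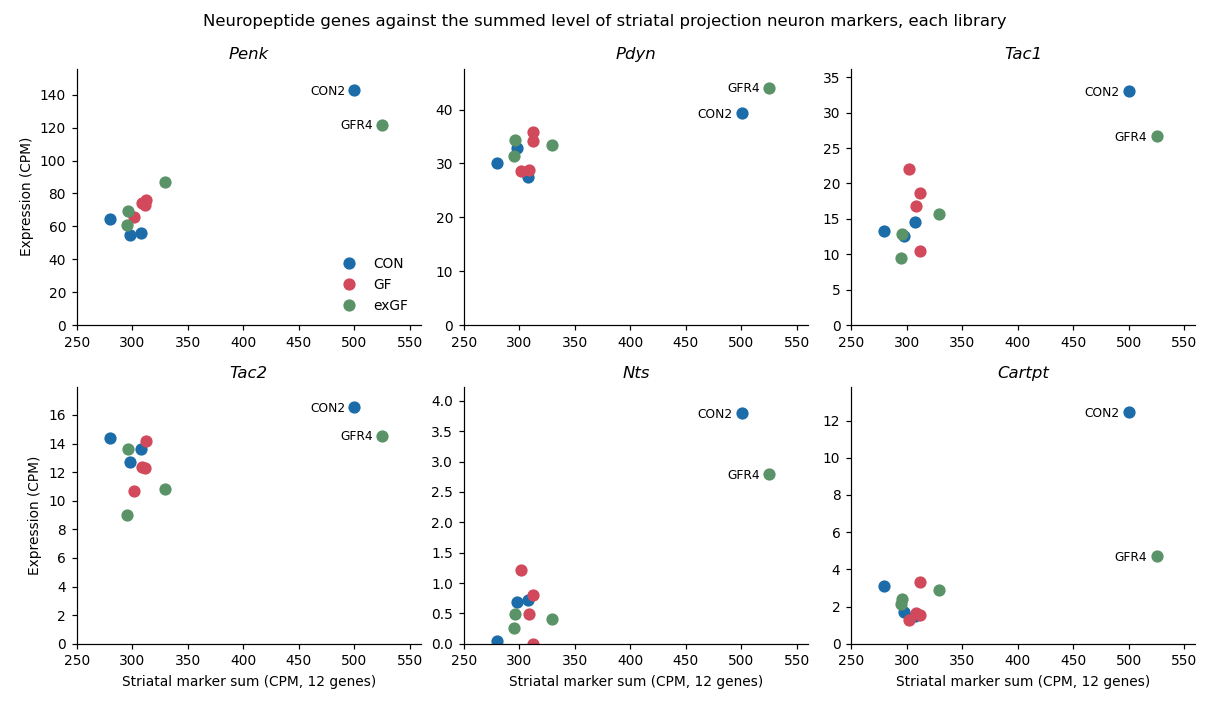
Level of 6 neuropeptide genes (vertical axis, CPM) against the summed level of 12 striatal projection neuron markers (horizontal axis, CPM) in each of the 12 libraries, coloured by group. CON2 and GFR4, at 500.2 and 525 CPM on the horizontal axis, have the 2 highest values of every gene shown, while the other 10 libraries lie between 280 and 329 CPM.

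The 10 genes spanned a wide range of levels. Set per kilobase of exon so that genes could be compared, Cck was the most abundant in CON (293.5 ± 59.0 CPM per kb, mean ± SD, n = 4), and all 4 of its libraries lay above all those of Penk (48.7 ± 25.9). Penk in turn lay above Adcyap1 (11.3 ± 1.54), Pdyn (11.2 ± 1.76) and Tac2 (10.4 ± 1.20). Below these came Tac1 (5.41 ± 2.88), Cort (5.30 ± 1.11), Cartpt (3.67 ± 4.09), Crh (2.94 ± 0.455) and Nts (1.05 ± 1.35). From Adcyap1 downwards, each gene overlapped the next gene in this order across the libraries. Genes further apart could separate: Adcyap1, Pdyn and Tac2 lay above Cort, Crh and Nts in all CON libraries, and so did Tac1 and Cort above Crh and Nts. The mean level of Cck in CON was 279.8 times that of Nts.

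**Figure D2:**
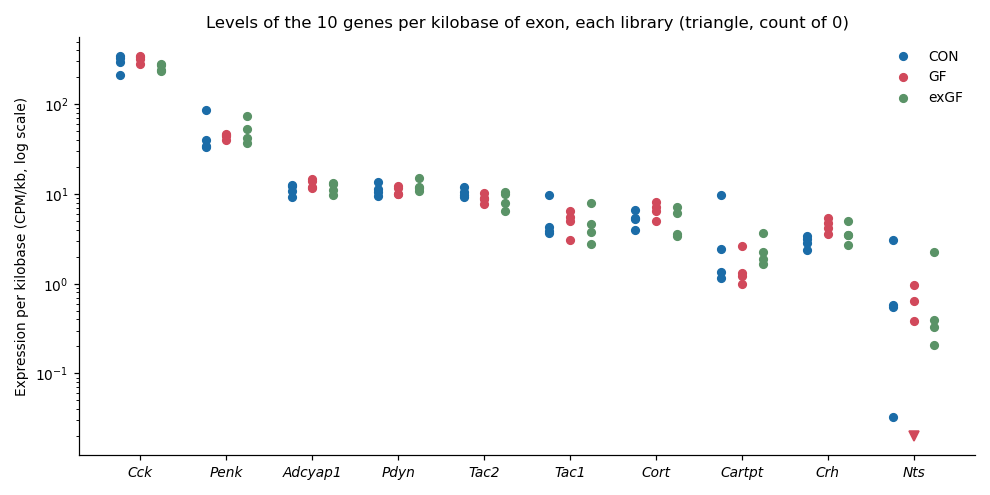
Level of each gene per kilobase of exon (vertical axis, CPM per kb, log scale) in every library, with genes ordered by their mean in CON and colours for CON, GF and exGF. Cck stands above Penk and Penk above the rest in every group, and the Nts count of 0 in library GF1 is drawn as a triangle at the foot of the plot.

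The genes also differed in how far libraries of a group spread. The coefficient of variation within groups, averaged over the 3 groups, was 12.4% for Cck, 13.1% for Adcyap1, 14.4% for Pdyn and 14.8% for Tac2, close to the median of all tested genes (12.9%). It was 19.5% for Crh, 25.8% for Cort, 30.4% for Penk, 42.6% for Tac1, 65.9% for Cartpt and 111% for Nts. The 4 genes with the widest spread are among the 6 that were highest in CON2 and GFR4. The precision of each comparison followed this spread, the 95% interval of the log2 fold change running from -0.51 to -0.12 for Cck in exGF against GF and from -2.78 to 0.83 for Nts in GF against CON.

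The question put to these genes was whether cortical peptide expression depends on the microbiota, and whether colonization from postnatal day 21 alters it. None of the 10 genes passed the threshold in any of the 3 pairwise comparisons (edgeR quasi-likelihood test, Benjamini-Hochberg adjusted p under 0.1). In CON vs GF, 0 of 10 were called, where 0.251% of the 15542 tested genes were. Crh and Cartpt had an unadjusted p under 0.05 (2 of 10, against 8.69% of all tested genes), and only Crh had groups that did not overlap (1 of 10, against 5.08%). In CON vs exGF, 0 of 10 were called (0.0696% of 15813 tested genes), 0 of 10 had an unadjusted p under 0.05 (5.33%) and 0 of 10 had groups that did not overlap (3.31%). In GF vs exGF no gene of the whole table was called (0%), and Cck alone of the 10 had an unadjusted p under 0.05 (6.65% of 15569 tested genes) and groups that did not overlap (3.32%). The median log2 fold change of the 10 genes was -0.07, -0.12 and -0.06 in these comparisons, beside 0.01, -0.01 and 0.00 over all tested genes. DESeq2 and limma-voom also called 0 of 10 in each comparison.

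**Figure D3:**
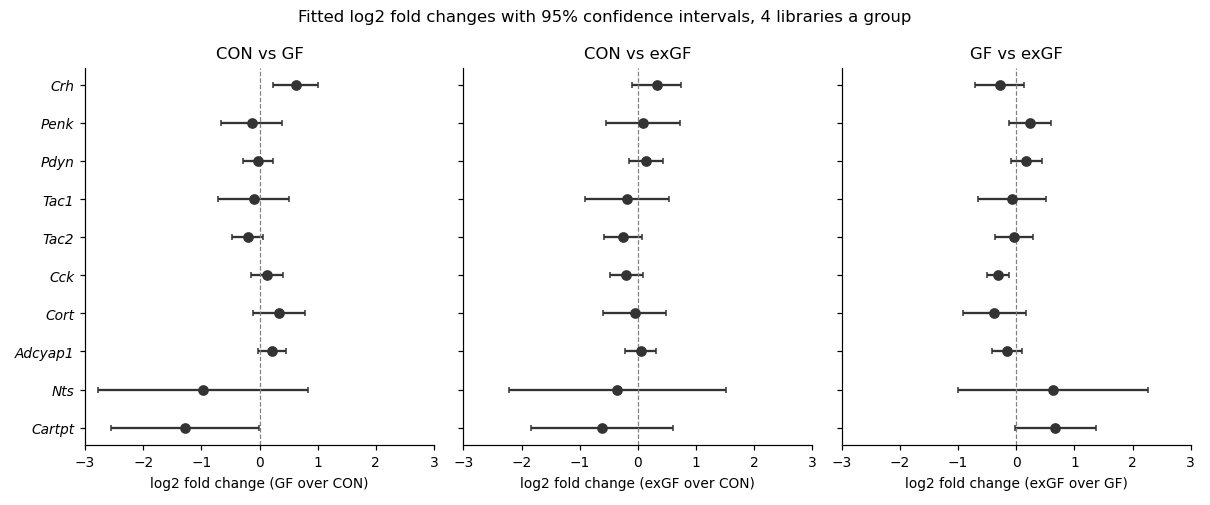
Fitted log2 fold change (horizontal axis) of each neuropeptide gene in the 3 pairwise comparisons, with 95% confidence intervals from edgeR over 4 libraries a group. The intervals exclude 0 for Crh and Cartpt in CON vs GF and for Cck in GF vs exGF, and those of Nts and Cartpt are the widest.

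Crh (ENSMUSG00000049796, chr3:19693401-19695396, minus strand, GRCm38) encodes corticotropin-releasing hormone, the peptide that starts the hormonal stress response from the hypothalamus and is made in the cortex by a subset of interneurons. Its level was 3.73, 4.52, 4.16 and 3.12 CPM in CON libraries 1 to 4. It was 5.57, 6.31, 7.14 and 4.79 CPM in GF libraries 1 to 4. In exGF it was 6.67, 4.66, 4.66 and 3.61 CPM in GFR1 to GFR4. Every GF library thus lay above every CON library, and the exGF libraries overlapped both groups. The log2 fold change of GF over CON was 0.62 (SE 0.18, 95% interval 0.24 to 1.0, adjusted p = 0.275), which did not pass the threshold and ranked 211 of the 15542 tested genes by p. The exGF mean lay between the others, with a log2 fold change of 0.32 over CON (SE 0.20, adjusted p = 0.952) and -0.29 against GF (SE 0.20, adjusted p = 0.787). These rested on single exGF libraries, the value over CON being 0.16 without GFR1 and 0.47 without GFR4, and that against GF being -0.47 and -0.16. Without CON2 and GFR4 the value over CON was 0.54 (SE 0.20, adjusted p = 0.769). Without CON2 the GF over CON value was 0.70 (SE 0.19, adjusted p = 0.269). Crh counts were 75 to 161 a library, so counting error alone is a visible part of its spread.

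The genes through which the Crh peptide acts gave no call either. Its receptor Crhr1 was at 27.4 ± 1.59 CPM in CON, 25.0 ± 2.68 CPM in GF and 32.5 ± 2.87 CPM in exGF (n = 4 each), with a log2 fold change of 0.38 from GF to exGF (SE 0.11, adjusted p = 0.736). Crhbp, whose product binds and sequesters the peptide, was at 34.0 ± 3.48 CPM in CON, 39.9 ± 3.98 CPM in GF and 32.7 ± 4.12 CPM in exGF, with adjusted p = 0.558 for CON vs GF and 0.736 for GF vs exGF.

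Adcyap1 (ENSMUSG00000024256, chr17:93199017-93206537, plus strand) encodes the peptide PACAP, another transmitter of stress circuits that raises cAMP in its target cells. Its level was 46.6, 35.0, 47.7 and 41.1 CPM in CON libraries 1 to 4. In GF it was 44.5, 52.6, 45.2 and 55.9 CPM. In exGF it was 49.9, 41.8, 49.1 and 36.4 CPM. The groups overlapped, and the lowest value of CON and of exGF came from CON2 and GFR4. The log2 fold change of GF over CON was 0.22 (SE 0.11, adjusted p = 0.617), and 0.14 without CON2 (adjusted p = 0.777), while exGF differed from CON by 0.05 (95% interval -0.21 to 0.31) and from GF by -0.16 (95% interval -0.41 to 0.09). Without GFR4 these values were 0.15 and -0.078, and without CON2 the difference of exGF from CON was -0.029.

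Penk (ENSMUSG00000045573, chr4:4133531-4138819, minus strand) encodes proenkephalin, the source of the enkephalins that act on delta and mu opioid receptors. Its level was 64.5, 143, 55.9 and 54.9 CPM in CON libraries 1 to 4. It was 73.2, 75.9, 74.0 and 65.9 CPM in GF. It was 87.0, 61.1, 69.3 and 122 CPM in exGF. CON2 and GFR4 held the highest values, and the GF libraries were close together. With all libraries, the log2 fold change of GF over CON was -0.14 (SE 0.24, adjusted p = 0.912). Without CON2 it was 0.31 (SE 0.09, adjusted p = 0.361), the nearest GF and CON libraries then being at 65.9 and 64.5 CPM. With the striatal marker level as a covariate it was 0.24 (SE 0.15, adjusted p = 0.741). The direction for Penk therefore turned on CON2, and the value did not pass the threshold in either case.

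Against exGF, Penk gave a log2 fold change of 0.08 over CON (SE 0.29, adjusted p = 0.997), which was 0.54 without CON2, -0.12 without GFR4 and 0.32 without both (SE 0.13, adjusted p = 0.845). From GF to exGF the value was 0.23 (SE 0.17, adjusted p = 0.794), and 0.0046 without GFR4. Penk shares 233 bases of exon with A830012C17Rik, an uncharacterised transcript on the opposite strand, and reads there could not be split because counting ignored strand. That transcript had 0 to 9 counts a library, against 985 to 3580 for Penk.

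Pdyn (ENSMUSG00000027400, chr2:129686565-129699844, minus strand) encodes prodynorphin, whose dynorphins act on the kappa opioid receptor. Its level was 30.1, 39.3, 27.5 and 32.9 CPM in CON libraries 1 to 4. It was 35.9, 34.1, 28.8 and 28.5 CPM in GF. It was 33.4, 31.3, 34.4 and 44.1 CPM in exGF. The 3 groups overlapped throughout. Fitted log2 fold changes were -0.03 for GF over CON (95% interval -0.29 to 0.23), 0.14 for exGF over CON (-0.15 to 0.42) and 0.17 for exGF over GF (-0.09 to 0.44). Without CON2 the first of these was 0.076 and the exGF over CON value 0.25. Without GFR4 the exGF over CON value was 0.037 and the last 0.056, and without both libraries exGF over CON was 0.14. Oprk1, the kappa opioid receptor, was at 5.85 ± 1.43 CPM in CON and 8.53 ± 2.42 CPM in GF (log2 fold change 0.53, SE 0.22, adjusted p = 0.510).

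Tac1 (ENSMUSG00000061762, chr6:7554879-7565834, plus strand) encodes substance P and neurokinin A. Its level was 13.3, 33.0, 14.6 and 12.6 CPM in CON libraries 1 to 4. It was 10.4, 18.6, 16.9 and 22.0 CPM in GF. It was 15.7, 9.45, 12.9 and 26.6 CPM in exGF. CON2 was the highest of all libraries and GFR4 the next. GF over CON gave a log2 fold change of -0.10 (SE 0.28, adjusted p = 0.947), against 0.34 without CON2 (SE 0.19, adjusted p = 0.693) and 0.30 with the striatal marker level as a covariate (SE 0.15, adjusted p = 0.702). The exGF over GF value was -0.07 (SE 0.27, adjusted p = 0.972), against -0.43 without GFR4 (SE 0.22, adjusted p = 0.621) and -0.45 with the covariate (SE 0.16, adjusted p = 0.413). The exGF over CON value was -0.19 (SE 0.34, adjusted p = 0.991), against 0.26 without CON2, -0.52 without GFR4 and -0.081 without both.

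Tac2 (ENSMUSG00000025400, chr10:127724478-127731768, plus strand) encodes neurokinin B, the ligand of the receptor Tacr3. Its level was 14.4, 16.5, 13.6 and 12.7 CPM in CON libraries 1 to 4. It was 12.3, 14.2, 12.3 and 10.7 CPM in GF. It was 10.8, 9.02, 13.6 and 14.5 CPM in exGF. CON had the highest mean, and the ranges overlapped. On the log2 scale the fold change was -0.21 for GF over CON (SE 0.13, adjusted p = 0.678), -0.26 for exGF over CON (SE 0.15, adjusted p = 0.952) and -0.04 for exGF over GF (95% interval -0.37 to 0.29). Without CON2 the GF over CON value was -0.13 and the exGF over CON value -0.17. Without GFR2 the latter was -0.13, and without GFR4 the exGF over GF value was -0.15.

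**Figure D4:**
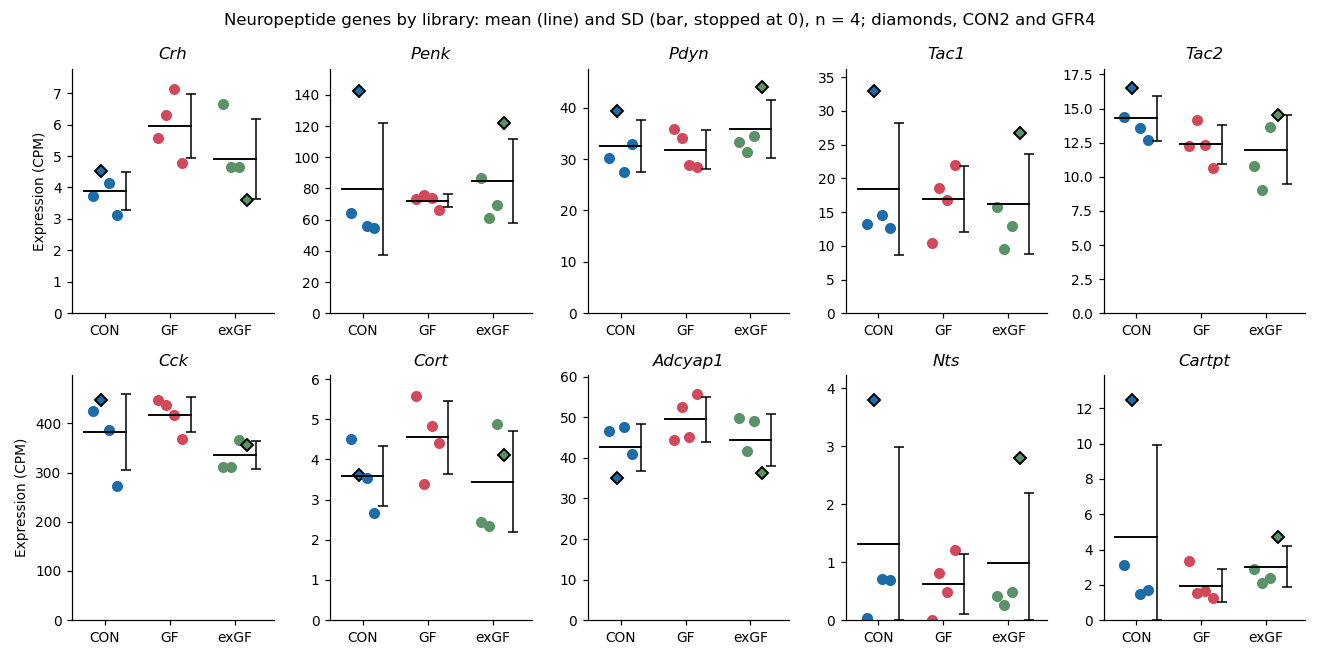
Level of each of the 10 neuropeptide genes (vertical axis, CPM, from 0) in the CON, GF and exGF libraries, with the mean as a line, the SD as a bar (n = 4) and CON2 and GFR4 as outlined diamonds. For Crh all 4 GF libraries lie above the CON libraries, for Cck all 4 exGF libraries lie below the GF libraries, and CON2 and GFR4 are the highest for Penk, Pdyn, Tac1, Tac2, Nts and Cartpt.

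Cck (ENSMUSG00000032532, chr9:121489824-121495694, minus strand) encodes cholecystokinin, the peptide of a class of basket interneurons that is also made by many pyramidal neurons. Its level was 425, 447, 387 and 274 CPM in CON libraries 1 to 4. It was 448, 438, 418 and 368 CPM in GF. It was 312, 310.3, 365 and 356 CPM in exGF. All 4 exGF libraries lay below all 4 GF libraries, and the CON libraries ran from 274 to 447 CPM, overlapping both. From GF to exGF the log2 fold change was -0.31 (SE 0.09, 95% interval -0.51 to -0.12, adjusted p = 0.736), which ranked 59 of the 15569 tested genes by p. Without GFR4 it was -0.34 (SE 0.10, adjusted p = 0.505), and over all alternatives it ran from -0.37 to -0.24 with adjusted p no lower than 0.244. GF differed from CON by 0.13 (SE 0.13, adjusted p = 0.823) and exGF from CON by -0.20 (SE 0.13, adjusted p = 0.952). Both moved with single CON libraries, to 0.21 and -0.11 without CON2 and to -0.0055 and -0.33 without CON4. The Cck difference between GF and exGF thus had the same direction in every setting tried and did not pass the threshold in any.

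Cort (ENSMUSG00000028971, chr4:149125034-149126763, minus strand) encodes cortistatin, a relative of somatostatin made by cortical interneurons. Its level was 4.51, 3.62, 3.55 and 2.66 CPM in CON libraries 1 to 4. It was 5.57, 3.40, 4.83 and 4.40 CPM in GF. It was 2.44, 2.33, 4.87 and 4.12 CPM in exGF. The ranges overlapped in all comparisons. Log2 fold changes were 0.33 for GF over CON (SE 0.21, adjusted p = 0.679), -0.06 for exGF over CON (SE 0.25, adjusted p = 0.997) and -0.38 for exGF over GF (SE 0.25, adjusted p = 0.778). Without CON4 the GF over CON value was 0.22, and the exGF over GF value ran from -0.60 without GFR3 to -0.24 without GFR2. Counts were 54 to 138 a library.

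Nts (ENSMUSG00000019890, chr10:102481756-102490486, minus strand) encodes neurotensin, a peptide that modulates dopamine signalling, and was the least abundant of the 10 genes. The counts were 1, 89, 21 and 18 in CON libraries 1 to 4. In GF they were 0, 18, 9 and 22. In GFR1 to GFR4 they were 10, 6, 14 and 82. CON2 (3.79 CPM) and GFR4 (2.79 CPM) exceeded all other libraries, the highest of which was at 1.21 CPM. The count of 0 in library GF1 allows a level of up to 0.223 CPM (3 counts, counting error only). The log2 fold change of GF over CON was -0.97 (SE 0.84, adjusted p = 0.786) and 0.41 without CON2 (SE 0.75, adjusted p = 0.920). With low counts and this spread between libraries, neither a direction nor a size could be given for Nts. The exGF over GF value was 0.63 (SE 0.75), and -0.72 without GFR4. The exGF over CON value was -0.36 (SE 0.86), against 1.04 without CON2, -1.69 without GFR4 and -0.31 without both libraries.

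Cartpt (ENSMUSG00000021647, chr13:99898489-99901091, minus strand) encodes the CART peptides, known for their part in feeding and reward. Its level was 3.12, 12.4, 1.47 and 1.71 CPM in CON libraries 1 to 4. It was 3.34, 1.57, 1.66 and 1.27 CPM in GF. It was 2.90, 2.12, 2.40 and 4.70 CPM in exGF. CON2 was 5.93 times the mean of the other 3 CON libraries. The log2 fold change of GF over CON was -1.28 (SE 0.59, 95% interval -2.55 to -0.01, adjusted p = 0.570). It was -0.13 without CON2 (SE 0.36, adjusted p = 0.955), so that the value of Cartpt rested on this library. The exGF over GF value was 0.67 (SE 0.33, adjusted p = 0.739), against 0.37 without GFR4 and 1.02 without GF1. The exGF over CON value was -0.62 (SE 0.56, adjusted p = 0.968), against 0.55 without CON2, -0.89 without GFR4 and 0.26 without both.

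**Figure D5:**
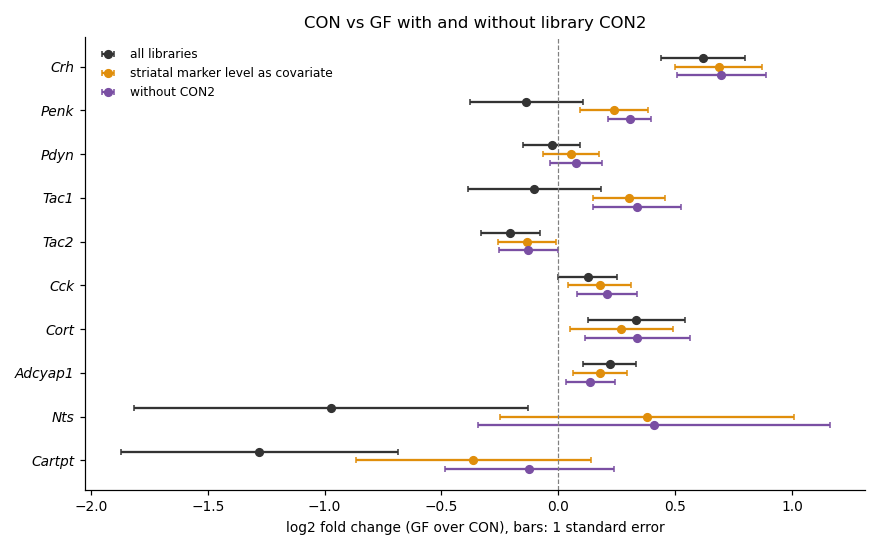
Log2 fold change of GF over CON for each gene (horizontal axis, bars of 1 standard error) with all libraries, with the striatal marker level as a covariate, and without library CON2. Penk, Pdyn, Tac1 and Nts move from below 0 to above 0 and Cartpt moves from -1.28 to -0.13, while Crh stays between 0.62 and 0.70.

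The excess of CON2 and GFR4 differed from gene to gene. The level in CON2 over the mean of the other CON libraries was 7.89 for Nts, 5.93 for Cartpt, 2.44 for Penk and for Tac1, 1.30 for Pdyn and 1.22 for Tac2. The level in GFR4 over the mean of the other exGF libraries was 7.17 for Nts, 2.10 for Tac1, 1.90 for Cartpt, 1.68 for Penk, 1.33 for Pdyn and 1.30 for Tac2. The order was alike in both libraries for Nts at the top and Pdyn and Tac2 at the foot. The part of striatal tissue in these values was not tested.

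Within the other 10 libraries, no relation of a neuropeptide gene to the striatal markers passed the threshold. Because CON2 and GFR4 form a group of their own, Pearson's r and Spearman's rho were taken over the remaining 10 libraries, after group means were removed, on log2 CPM. For Tac1, r with the mean striatal marker level was 0.78 (exact permutation test within groups, two-sided, p = 0.0625, adjusted p over 30 relations = 0.469) and rho was 0.76 (exact permutation p = 0.0417, adjusted p = 0.278). For Nts, r was 0.71 (exact permutation p = 0.0394, adjusted p = 0.417) and rho was 0.71 (exact permutation p = 0.0243, adjusted p = 0.278). Adcyap1 had r = 0.61 (exact permutation p = 0.131) and rho = 0.75 (exact permutation p = 0.0463, adjusted p = 0.278). Penk (r = 0.37), Tac2 (0.23), Pdyn (-0.03) and Cartpt (-0.49) had exact permutation p values of 0.236 or more. After leaving out GF1 and GF2 as well, r was 0.83 for Tac1 and 0.57 for Nts. These libraries were the farthest from the median of the mean log2 CPM of the markers, once group means were removed. In summed CPM of the markers GF1 and GF2 were close, at 311.9 and 312.2, and GF1 is the library with an Nts count of 0.

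With 12 GABAergic neuron markers, Tac1 had r = 0.81 (exact permutation p = 0.0220, adjusted p = 0.417) and rho = 0.76 (exact permutation p = 0.0394, adjusted p = 0.278). Adcyap1 had r = 0.78 (exact permutation p = 0.0417, adjusted p = 0.417) and rho = 0.83 (exact permutation p = 0.0255, adjusted p = 0.278) with the same markers. None of the 30 relations passed an adjusted p of 0.05 over the 10 libraries. The 10 libraries have only 864 arrangements within groups, so hardly any result could pass after adjustment over 30 relations. The absence of a pass therefore cannot show that relations are absent. For 9 activity-induced genes, among them Fos and Npas4, r ran from -0.43 to 0.17 over the 10 genes, with the lowest exact permutation p at 0.215. These values rested on few libraries. After leaving out CON1 and CON3 as well, r ran from -0.91 for Pdyn to 0.53 for Nts. It was then -0.86 for Cck, -0.76 for Tac2 and -0.73 for Cartpt, and stayed near 0 for Adcyap1 (0.0055) and Crh (-0.07).

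For the 6 neuropeptide genes with a mean of at least 5 CPM, the genes most like them across all 12 libraries, by Pearson's r of log2 CPM after group means were removed, are given as a description among 14177 genes. For Penk they were Serpina9 (r = 0.95), Cgref1 (0.95) and Gmpr2 (0.95). For Tac1 they were Haus7 (0.96), Lrrc10b (0.95) and Snhg5 (0.95). For Pdyn they were Rarb (0.95), Dcaf11 (0.91) and Tmem98 (0.88). For Cck, the nearest were Gpx1 (0.98), Pcbp1 (0.98) and Angptl6 (0.97), for Adcyap1 they were Tcea1 (0.92), Cald1 (0.91) and Grm7 (0.90), and for Tac2 they were Tmem106c (0.93), Dnal4 (0.93) and Nudt22 (0.92). All these values share the same 12 libraries, CON2 and GFR4 included.

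CREB, a transcription factor switched on by neuronal firing and by cAMP, binds the cAMP response element, a motif known from the promoters of many peptide genes. The 250 bases before the RefSeq start site (GRCm38.p6) were searched on both strands for the full motif TGACGTCA and its shorter form TGACG, or CGTCA when read on the other strand, the full motif containing the shorter form on each strand. A promoter was found for 8 of the 10 genes. The full motif was in that of Cartpt alone (1 of 8, against 1.55% of 32851 promoters), and the shorter form was in those of Adcyap1, Cartpt, Cck, Cort, Nts and Tac1 (6 of 8, against 17.8%) and not in those of Pdyn and Tac2. The 8 are counted per gene and the shares per promoter, and Adcyap1 and Pdyn had more than 1 window each. The windows of Cartpt, Nts and Tac1 overlap annotated exons of the same genes. The promoters of Cck, the most abundant gene, of Adcyap1, the precursor of PACAP, and of Cort are shown because their windows hold the shorter form and no annotated exon, at chr9:121495695-121495944 (minus strand), chr17:93198767-93199016 (plus strand) and chr4:149126764-149127013 (minus strand). Capitals mark the motif, whose last base is at position -43 in Cck, -87 in Adcyap1 and -14 in Cort, counted back from the start site.
Cck: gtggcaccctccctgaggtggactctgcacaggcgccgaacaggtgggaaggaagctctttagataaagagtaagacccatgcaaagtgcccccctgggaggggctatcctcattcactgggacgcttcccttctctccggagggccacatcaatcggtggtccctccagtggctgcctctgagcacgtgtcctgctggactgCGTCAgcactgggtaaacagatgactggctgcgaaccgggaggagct
Adcyap1: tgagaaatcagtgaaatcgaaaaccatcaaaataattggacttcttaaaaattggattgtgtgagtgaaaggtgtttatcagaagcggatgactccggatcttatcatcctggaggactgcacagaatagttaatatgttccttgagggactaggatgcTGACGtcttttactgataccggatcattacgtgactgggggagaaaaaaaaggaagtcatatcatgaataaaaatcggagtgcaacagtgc
Cort: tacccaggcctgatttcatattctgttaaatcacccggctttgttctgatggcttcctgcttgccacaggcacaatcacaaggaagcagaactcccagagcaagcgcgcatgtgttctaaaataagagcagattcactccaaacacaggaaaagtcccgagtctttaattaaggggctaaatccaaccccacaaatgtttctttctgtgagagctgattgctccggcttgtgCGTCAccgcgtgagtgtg
A match of these letters is a description of the sequence and does not show that a factor binds there.

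Set beside these promoters, the 9 activity-induced genes had a median log2 fold change of 0.47 in GF over CON. Of these, 0 of 9 were called (0.251% of all tested genes) and 7 of 9 had an unadjusted p under 0.05 (8.69%). The values with the smallest p were those of Arc (0.84), Nr4a1 (0.62), Egr1 (0.47) and Egr2 (0.66), with adjusted p from 0.125 to 0.298. The summed level of the 9 genes was 981 to 1236 CPM in GF, 708 to 1284 CPM in exGF and 579 to 913 CPM in CON, with GFR4 the highest library. In exGF over CON the median of the 9 was 0.32, with 8 of 9 higher. There 0 of 9 were called (0.0696% of all tested genes) and 2 of 9 had an unadjusted p under 0.05 (5.33%). The neuropeptide genes whose promoters hold the shorter motif gave log2 fold changes in GF over CON of 0.22 (Adcyap1), 0.13 (Cck), 0.33 (Cort), -0.10 (Tac1), -0.97 (Nts) and -1.28 (Cartpt). None of them was called, and the last 3 were sensitive to CON2 as described above.

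The machinery that makes, receives and removes the peptides was read from the same fits. Of 21 receptor and binding protein genes, 19 were tested, and 0 of 19 were called in any comparison. Of all tested genes, 0.251% were called in CON vs GF, 0.0696% in CON vs exGF and 0% in GF vs exGF. In CON vs GF, 2 of 19 had higher and 1 of 19 had lower values at an unadjusted p under 0.05, which 8.69% of all tested genes passed. These were Crhbp (named after its values were seen), Oprk1 and the somatostatin receptor Sstr1 (log2 fold change -0.32, adjusted p = 0.535), at which cortistatin also acts. In CON vs exGF, where 5.33% of all tested genes passed that p, 1 of 19 had higher values, Crhr1 (log2 fold change 0.24, SE 0.10, adjusted p = 0.864), and 1 of 19 lower values. The latter, Vipr2, a receptor for PACAP and VIP, was at 0.987 ± 0.376 CPM in CON and 0.505 ± 0.0437 CPM in exGF, with all exGF libraries lower (log2 fold change -0.98, SE 0.33, adjusted p = 0.718). In GF vs exGF, where 6.65% of all tested genes passed that p, 1 of 19 had higher values (Crhr1) and 1 of 19 lower values (Crhbp). The summed level of the list was 1111 to 1274 CPM in CON, 1163 to 1249 CPM in GF and 1184 to 1252 CPM in exGF. Sort1 alone had a mean of 627 CPM in CON, where the mean sum was 1201 CPM, so the sum says little of the less abundant receptors.

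Of 16 genes for precursor processing and dense-core granules, all were tested and 0 of 16 were called in any comparison. Of all tested genes, 0.251% were called in CON vs GF, 0.0696% in CON vs exGF and 0% in GF vs exGF. The granule protein gene Scg2 was at 241 ± 24.6 CPM in CON and 282 ± 36.1 CPM in GF (log2 fold change 0.23, SE 0.10, adjusted p = 0.541). Scg5, which encodes a chaperone of the convertase that cleaves these precursors, was at 269.9 ± 50.8 CPM in GF and 356 ± 71.1 CPM in exGF (log2 fold change 0.40, SE 0.15, adjusted p = 0.736). Of 8 peptidases that degrade released peptides, 0 of 8 were called and 0 of 8 had an unadjusted p under 0.05 in any comparison.

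Other neuropeptide precursor genes, 19 of them in the table and 9 or 10 tested in each comparison, also gave 0 calls. The shares of all tested genes called were 0.251% in CON vs GF, 0.0696% in CON vs exGF and 0% in GF vs exGF. Grp, the precursor of gastrin-releasing peptide, was at 11.8 ± 2.0 CPM in CON, 7.84 ± 3.84 CPM in GF and 6.85 ± 1.72 CPM in exGF. All 4 of its exGF libraries lay below all CON libraries (log2 fold change -0.79, SE 0.18, adjusted p = 0.334). Sst, the precursor of somatostatin, was at 287 ± 19.9 CPM in GF and 226 ± 43.4 CPM in exGF (log2 fold change -0.35, SE 0.12, adjusted p = 0.736), and Nmb, the precursor of neuromedin B, was at 0.905 ± 0.226 and 1.52 ± 0.368 CPM (log2 fold change 0.76, SE 0.29, adjusted p = 0.736). The groups of Sst overlapped and those of Nmb did not.

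Markers of other cells differed between the groups in the same libraries. All 10 oligodendrocyte markers were higher in GF than in CON, and 7 of 10 were called (0.251% of all tested genes). Among the 7 were Mobp (0.99 on the log2 scale), Mal (0.89), Mbp (0.86), Ermn (0.85), Mog (0.82) and Cldn11 (0.75). Ugt8a (0.68, adjusted p = 0.115) and Mag (0.55, adjusted p = 0.254) were among the other 3, which did not pass the test. The summed level of the 10 markers was 3428 to 5736 CPM in GF against 2201 to 2701 CPM in CON. Of 6 markers of the claustrum and deep insular cortex, all 6 were higher in GF and 1 was called (0.251% of all tested genes). This was Nr4a2, which rose from 10.9 ± 0.912 CPM in CON to 22.1 ± 6.78 CPM in GF (log2 fold change 1.02, SE 0.18, adjusted p = 0.0384). The summed level of the list was 174 to 210 CPM in GF against 154 to 171 CPM in CON. The claustrum marker Gnb4 (log2 fold change 0.28, adjusted p = 0.327), the glutamatergic marker Nrn1 (0.33, adjusted p = 0.218) and the septal and thalamic marker Zic4 (-0.84, adjusted p = 0.336) were not called. Of the 6 tested markers of thalamus, hypothalamus and septum, 3 were lower in GF at an unadjusted p under 0.05 (8.69% of all tested genes passed that p). The other 3 were higher, 0 of them at that p. In CON vs exGF, the GABAergic marker Sp8 (-1.05, adjusted p = 0.686) and Zic1 (-0.67, adjusted p = 0.683) were not called either. Nr4a2 is also induced by neuronal activity, and Oprk1 belongs to both the claustrum list and the receptors. From GF to exGF, where all 4 Cck libraries of exGF were the lower ones, 0 of 10 oligodendrocyte markers were called (0% of all tested genes). Lower values at an unadjusted p under 0.05 were found for 8 of 10 (6.65% of all tested genes passed that p). The median log2 fold change of the 10 was -0.62, with a summed level of 2177 to 3670 CPM in exGF. Of the 6 claustrum markers, 0 were called and 2 had lower values at that p, with a summed level of 150.4 to 191 CPM in exGF. The summed GABAergic markers were 747 to 770 CPM in CON, 727 to 876 CPM in GF and 741 to 847 CPM in exGF. The part of these shifts in the values of Crh, Cck and the other neuropeptide genes was not tested.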

How the data were processed

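PolyA RNA of 12 mPFC pools was sequenced with a stranded kit. The authors trimmed reads with Trimmomatic 0.32, aligned them to GRCm38.p3 with STAR and made the deposited raw counts per Ensembl 78 gene with HTSeq 0.6.0, without strand. Reads on no gene were 4.57 to 7.31%, ambiguous reads 1.10 to 1.32% and reads with several alignments 13.0 to 19.2% of each library, and were left out.

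Counts were scaled by TMM and given as CPM. Groups were compared pairwise, 4 against 4 libraries, with the quasi-likelihood test of edgeR 4.0.16 (filterByExpr), with Benjamini-Hochberg adjustment over all tested genes and a threshold of 0.1, the adjusted p the authors used. Alternatives were DESeq2 1.42.0, limma 3.58.1 (voom), other scalings and filters, a striatal covariate, a replicate block and leaving out each library. The step was tested on simulated counts. Relations used exact permutation within groups (log2 CPM, prior count 1), BH over 30. Libraries are pools, so p-values measure the spread between pools.

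The genes and all lists were chosen with earlier results of these data known, and receive no test as lists. All 10 genes are named in each comparison, and from other lists those called, those with an unadjusted p under 0.01 and otherwise those with the smallest p, at most 2 a comparison, except that some markers are not reported here by name and that called or low-p markers of the oligodendrocyte list are named for CON vs GF only. Symbols, exon lengths and coordinates are from GENCODE M21 and promoters from RefSeq. Leaving out CON2 and GFR4 together was chosen after seeing the data.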

Additional observations from a re-analysis of the deposited data

Results flagged for a closer look

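In 6 of 63 tests of a group of 4 libraries, 1 library stood so far from the others that its gap to the nearest filled most of the group's range (Dixon's test at the 95% level, which flags about 1 group in 20 by chance). In CON, library CON2 stood out for Penk (143 CPM), Tac1 (33.0 CPM) and Cartpt (12.4 CPM), and for the summed striatal projection neuron markers (500.2 CPM). In exGF, library GFR4 stood out for Nts (2.79 CPM) and for the summed striatal markers (525 CPM). The flags for the neuropeptide genes fell on the same libraries as those for the striatal markers, and the part of striatal tissue in them was not tested.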

How the results depend on the processing

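No neuropeptide gene was called in any comparison under any alternative run, and the lowest adjusted p was 0.131 (Crh in CON vs GF, DESeq2 of the 2 groups). Crh in CON vs GF ran from 0.35 to 0.71 (log2) with adjusted p up to 0.568. The count of all genes called moved more. In CON vs GF it was 39, against 221 with no filter on low counts, 195 and 163 with DESeq2 of the 2 groups and of all libraries, and 27 to 60 with 1 library left out. In CON vs exGF it was 11, against 48 with no filter, 7 with at least 10 counts in every library, 52 and 50 with DESeq2, and 17 without CON2 and GFR4. In GF vs exGF it was 0, with 6.65% of genes at an unadjusted p under 0.05, against 32 with no filter, 14 and 12 with DESeq2, 2 in 1 fit of all libraries, 3 with the striatal covariate, and 0 to 7 with 1 library left out.

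Directions turned for values near 0 or resting on 1 library, and the cause was not tested. In CON vs GF the striatal covariate gave 0.24 for Penk, 0.053 for Pdyn, 0.30 for Tac1 and 0.38 for Nts, and limma-voom 0.0057 for Tac1. With 1 library left out, the log2 fold change ran from -0.28 to 0.31 for Penk, -0.10 to 0.076 for Pdyn, -0.25 to 0.34 for Tac1, -0.0055 to 0.21 for Cck and -1.45 to 0.41 for Nts. In CON vs exGF limma-voom gave 0.21 for Nts, leaving out CON2 and GFR4 gave 0.26 for Cartpt, and leaving out 1 library gave -0.12 to 0.54 for Penk, -0.52 to 0.26 for Tac1, -0.27 to 0.10 for Cort, -0.029 to 0.15 for Adcyap1, -1.69 to 1.04 for Nts and -0.93 to 0.55 for Cartpt. In GF vs exGF the covariate gave -0.62 for Nts, and leaving out 1 library gave -0.43 to 0.11 for Tac1, -0.15 to 0.071 for Tac2 and -0.72 to 1.10 for Nts.

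Over all 12 libraries, 2 genes (Tac1 and Nts) were related to striatal markers and 1 (Tac1) to GABAergic markers at an adjusted p under 0.05. These counts were 0 and 0 without CON2 and GFR4 and 0 and 0 with the median over the list, and ran from 0 to 2 and from 0 to 2 with 1 library left out. Without CON2 and GFR4, r with striatal markers was 0.78 for Tac1, 0.71 for Nts, -0.030 for Pdyn and -0.49 for Cartpt. With 864 arrangements of those 10 libraries, the counts of 0 cannot show that the relations are absent. Same-numbered CON and GF libraries did not deviate together (r -0.05 to 0.03, other pairs -0.08 to 0.10), so the numbers do not pair them, and with a replicate block 51 genes were called and 0 neuropeptide genes. The exGF columns have no numbers that match samples. Nts had too few counts for the filter of at least 10 in every library, which gave it no value. Counts of 0 to 89 a library for Nts limit what can be said of it.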
